A study of Mus musculus with 4 samples.

Results

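Hepcidin and 9 other genes of iron handling were followed across 4 infarcted mouse hearts, 10 of the 19505 gene symbols on a Clariom S Mouse array. The members were chosen from the annotation by symbol, with earlier results of the same 4 arrays known, so that the group differences of these 10 genes are given as a description and carry no test. They are the hepcidin genes Hamp and Hamp2, the iron exporter Slc40a1, the ferroxidase Cp and the uptake genes Tfrc, Slc11a2 and Slc39a14. The others are the haemochromatosis gene Hfe and the ferritin chains Fth1 and Ftl1. Each of the 10 was read by 1 probe, the array's summary value for a transcript, so no choice between probes was needed.

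The control group, Ctrl-MI, held 2 hearts of genotype Tcf21iCre/Tomato, and the transgenic group, TTg-MI, held 2 hearts of genotype Tcf21iCre/Tomato/MGTH2A. Both groups carry the Tomato reporter and Tcf21iCre, in which Tcf21, a gene active in fibroblasts of the heart, drives the recombinase Cre. MGTH2A is known as a single construct for the cardiac factors Mef2c, Gata4, Tbx5 and Hand2. All mice were male, had the left coronary artery tied at 8 weeks of age, and gave whole hearts 3 months later. No source used here names the strain. The series' design text calls the hearts of a group independent biological replicates. Whole-heart RNA mixes muscle, fibroblasts, vessels and blood cells, so fewer cells of a type and less RNA per cell cannot be told apart.

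Hepcidin is a small peptide hormone, made mainly by the liver, that binds the iron exporter ferroportin (Slc40a1) and sends it to degradation, which keeps iron inside cells. Heart muscle also makes hepcidin, and there it acts on ferroportin of the same cells. Iron enters through the transferrin receptor (Tfrc), is stored in ferritin (Fth1 and Ftl1) and leaves through ferroportin, after which a ferroxidase such as ceruloplasmin (Cp) oxidizes it for loading on transferrin. Transcription of hepcidin is driven by bone morphogenetic protein (BMP) signals and by interleukin 6 through STAT3. Ferritin, ferroportin and transferrin receptor are also controlled after transcription by iron regulatory proteins, which array values of messenger RNA do not read directly.

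The mouse carries a pair of hepcidin genes, and their promoters are shown because the letters bear on the signals named above and on how alike the pair is. The sequences are from RefSeq on GRCm38.p6, minus strand, 5′ to 3′, and cover the 170 bases that end just before the annotated transcription start: chr7:30944030-30944199 for Hamp and chr7:30924182-30924351 for Hamp2. Capitals mark GGCGCC, the core of the BMP response element, and TTCTTGGAA, the STAT site.
Hamp: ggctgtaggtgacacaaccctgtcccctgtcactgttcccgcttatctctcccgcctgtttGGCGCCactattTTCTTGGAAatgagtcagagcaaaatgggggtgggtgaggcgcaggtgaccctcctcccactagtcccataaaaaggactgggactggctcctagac
Hamp2: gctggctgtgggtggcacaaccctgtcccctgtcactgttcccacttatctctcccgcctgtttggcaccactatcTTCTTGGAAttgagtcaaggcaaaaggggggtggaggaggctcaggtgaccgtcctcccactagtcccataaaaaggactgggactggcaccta

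Over 250 bases before the start, 227 of 247 aligned bases were identical, or 91.9%. The Hamp sequence held GGCGCC, beginning 109 bases before the start, and Hamp2 had GGCACC at the aligned place. TTCTTGGAA was in both, beginning 97 bases before the start in Hamp and 94 in Hamp2. Searched on both strands over the same 250 bases of 32851 RefSeq promoters, GGCGCC was in 9.59% and TTCTTGGAA in 0.365%. Among the 10 promoters listed for 7 of the members, GGCGCC was also in 1 of Tfrc and TTCTTGGAA in no others. A match is a description of letters and not a binding site. The array's own oligonucleotides were not analysed here, so how far the probes of Hamp and Hamp2 read each other's transcripts was not tested.

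All values are log2 units. Array medians lay between 6.55 and 6.62. The lower quartile, from 5.41 to 5.48, served as the level under which a probe was not taken to be above background, and 0 of the 10 genes lay under it on any array. Each array topped out at 19.92 or 19.93, and 40 to 43 probes per array lay within 1 unit of that ceiling. Ctrl-MI replicate 2 had the lowest value for 4 of the 9 atrial markers. Ctrl-MI replicate 1 had the highest value for most fibroblast and macrophage markers. Both are given beside the results they touch. The all-probe limma fit called 1 of 22206 probes (0.0045%) at an adjusted p under 0.05 after Benjamini-Hochberg adjustment, the atrial growth factor gene Bmp10; without Ctrl-MI replicate 2 it called 332. Of the genes of the transgene, Mef2c (12.67 and 13.02 in Ctrl-MI, 16.01 and 13.97 in TTg-MI) and Tbx5 (7.62 and 7.88, 10.68 and 9.72) were higher in both TTg-MI hearts, and Gata4 and Hand2 overlapped. Whether these probes read the transgene was not tested.

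In short, the hepcidin genes, ferroportin, ceruloplasmin and the transferrin receptor had higher values in both TTg-MI hearts than in either Ctrl-MI heart, and the ferritin light chain had lower values. Of the 9 members below the ceiling, 5 lay higher without overlap of the groups, 1 lay lower without overlap and 3 overlapped. Over all probes, 19.4% lay higher and 18.7% lower without overlap. As this contrast chose the members, nothing is read from these counts.

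**Figure D1:**
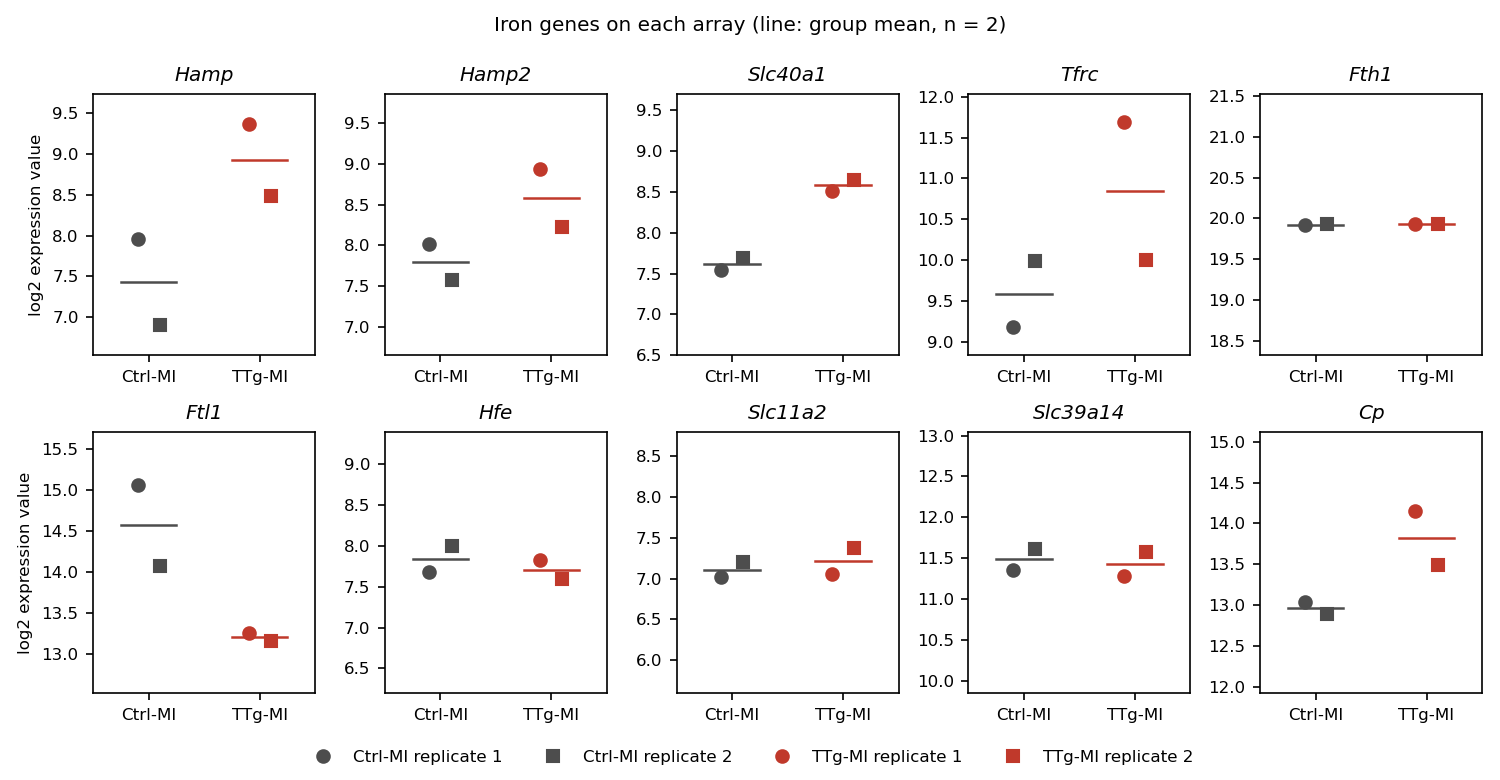
The log2 value of each gene on each of the 4 arrays, with Ctrl-MI in grey and TTg-MI in red, replicate 1 as a circle, replicate 2 as a square and the group mean (n = 2) as a line; each panel has its own scale. The red points of Slc40a1 (8.51 and 8.65) sit close together above both grey points, those of Tfrc (11.693 and 9.999) lie far apart, and Fth1 is at the ceiling on every array.

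Hamp, which encodes the main circulating form of hepcidin, stood at 7.96 and 6.91 on the first and second Ctrl-MI arrays (replicates 1 and 2) and at 9.36 and 8.49 on TTg-MI replicates 1 and 2. Both TTg-MI values lay above both Ctrl-MI values, by 0.529 at the nearest, while the arrays within a group differed by 1.05 in Ctrl-MI and 0.87 in TTg-MI. The group means of 7.44 ± 0.74 and 8.93 ± 0.62 (SD, n = 2 each) lay 1.49 log2 units apart (SE 0.43), or 2.81-fold. Leaving out Ctrl-MI replicate 2 brought this to 0.97, and leaving out Ctrl-MI replicate 1 to 2.01.

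Hamp2, the second hepcidin gene, stood at 8.02 and 7.58 in Ctrl-MI and at 8.93 and 8.22 in TTg-MI. The groups again did not overlap, but the gap of 0.202 was smaller than the spread inside either group. The means of 7.80 ± 0.31 and 8.58 ± 0.50 (SD, n = 2 each) gave a difference of 0.77 (SE 0.29), and of 0.42 without TTg-MI replicate 1. The order of the arrays was the same as for Hamp, with TTg-MI replicate 1 highest and Ctrl-MI replicate 2 lowest. Hamp minus Hamp2 was -0.06 and -0.67 on the Ctrl-MI arrays and 0.43 and 0.27 on the TTg-MI arrays, so that the paired genes differed by unequal amounts, 0.71 apart.

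Atrial muscle genes differed widely among the arrays, some in the order of the hepcidin genes and others not. Myl7, the atrial regulatory myosin light chain, was 10.44 and 5.61 in Ctrl-MI and 12.45 and 11.47 in TTg-MI, in the same order of arrays as Hamp. Myl4, the atrial essential light chain, was 15.99 and 7.70 in Ctrl-MI and 16.34 and 14.61 in TTg-MI, and Sln, the atrial inhibitor of the calcium pump, was 14.07 and 7.90 in Ctrl-MI and 14.42 and 13.06 in TTg-MI. These 3 were lowest by several units on Ctrl-MI replicate 2, where Hamp and Hamp2 were also lowest, but for Myl4 and Sln the groups overlapped, with Ctrl-MI replicate 1 above TTg-MI replicate 2.

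The 9 atrial markers averaged 11.52 and 9.18 on the Ctrl-MI arrays and 12.75 and 11.97 on the TTg-MI arrays. Of the 9, 4 were lowest on Ctrl-MI replicate 2, 3 on Ctrl-MI replicate 1 and 2 on TTg-MI replicate 2. In group means 6 were higher in TTg-MI and 3 lower, namely Nppa (-0.53), Dkk3 (-0.70) and Gja5 (-0.24). Bmp10, Kcnj3 and Kcnj5 were the markers lowest on Ctrl-MI replicate 1, and Nppa was at the ceiling on 3 arrays, with 18.85 on TTg-MI replicate 2. The part of atrial tissue in the hepcidin values was not tested.

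Hepatocyte markers were looked at because the liver is the main source of hepcidin. Albumin (Alb) was 5.60 and 5.71 in Ctrl-MI and 5.47 and 5.66 in TTg-MI, near the lower quartile on every array. The 10 hepatocyte markers averaged 6.37 and 6.28 in Ctrl-MI and 6.35 and 6.26 in TTg-MI, with 5 higher and 5 lower in group means.

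**Figure D2:**
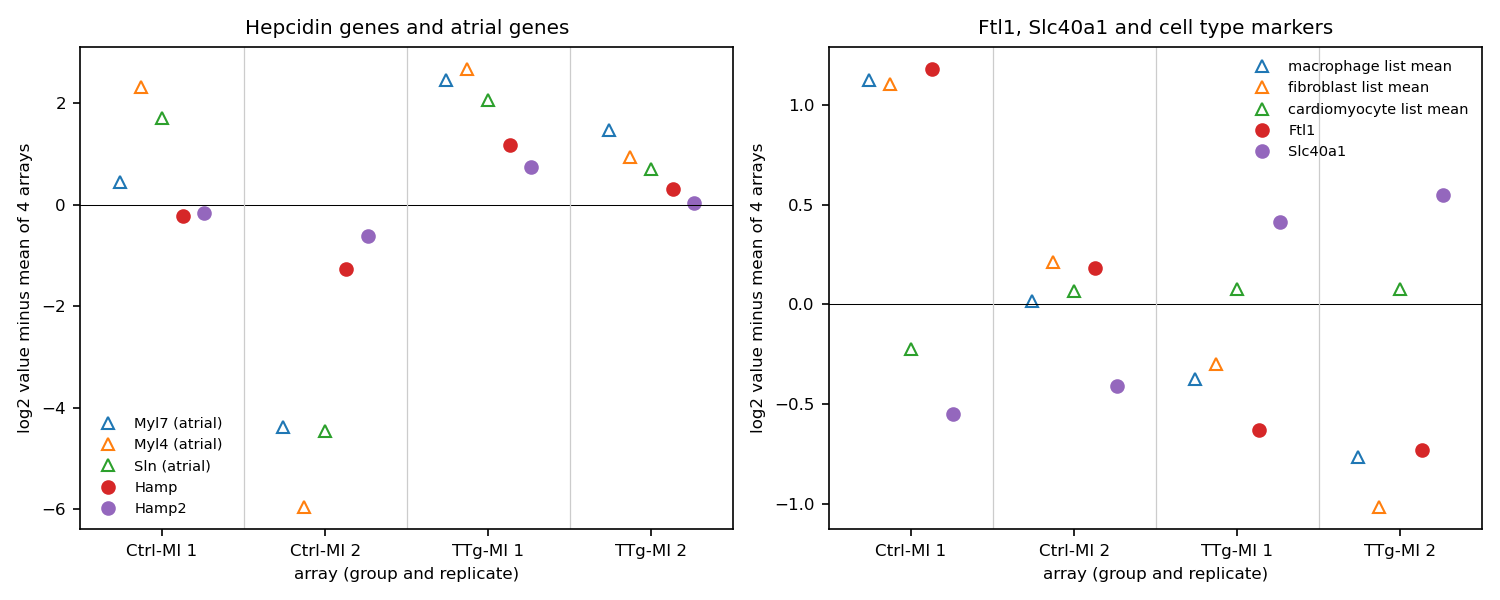
Values on each of the 4 arrays, each minus its own mean over the arrays (log2), for Hamp and Hamp2 beside the atrial genes Myl7, Myl4 and Sln (left), and for Ftl1 and Slc40a1 beside the mean of the macrophage, fibroblast and cardiomyocyte marker lists (right). Hamp and the 3 plotted atrial genes are lowest on Ctrl-MI replicate 2. These 3 belong to the 4 of all 9 atrial markers that are lowest there. Nppa, at the ceiling on 3 arrays and lowest on TTg-MI replicate 2, is not plotted. Ftl1 follows the macrophage and fibroblast lists while Slc40a1 runs the other way.

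The genes nearest to Hamp over the 4 arrays were ranked by the Euclidean distance between values centred on each gene's own mean, over 19571 other named probes. The nearest 5 were Gpr158, an orphan G protein-coupled receptor, at a distance of 0.45 log2 units, Sbk3, a kinase gene, at 0.57, Tmprss13, a membrane protease, at 0.69, Rbpms2, an RNA-binding protein of muscle, at 0.72, and Hand2, a factor of the transgene, at 0.73. Sbk3 stood at 7.17 and 6.56 in Ctrl-MI and at 8.26 and 7.50 in TTg-MI, and Hand2 at 9.09 and 8.24 in Ctrl-MI and at 9.94 and 8.93 in TTg-MI. For Hand2 the groups overlapped. Tmprss13 stood at 5.41 and 4.88 in Ctrl-MI, under those arrays' lower quartiles, and at 6.39 and 6.21 in TTg-MI. Among the members, Hamp2 ranked 7 (0.84), Cp 10 (0.91), Slc40a1 111 (1.22) and Tfrc 882 (1.45). With 4 arrays this is a description of these hearts.

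Next to Hamp on mouse chromosome 7 lies Usf2, a helix-loop-helix transcription factor gene, chosen after its values were seen. Usf2 stood at 7.59 and 8.29 in Ctrl-MI and 8.61 and 8.66 in TTg-MI, a difference of 0.69 (SE 0.26, limma with Benjamini-Hochberg adjusted p = 0.588), and of 0.34 or 1.04 with the first or the second Ctrl-MI array left out. Unlike Hamp it was lowest on Ctrl-MI replicate 1. The next genes on either side did not share the size of the hepcidin difference. Mag, a myelin protein gene beside Hamp2, differed by 0.23, and Cd22, beyond Mag, by 0.19. Both were higher in TTg-MI without overlap, by 0.071 and 0.118 at the nearest, as were 19.4% of all probes. Lsr, a lipoprotein receptor gene beyond Usf2, differed by -0.02 and overlapped.

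Slc40a1, the ferroportin gene and the target of hepcidin, was the member with the least spread among those that differed. It stood at 7.55 and 7.69 in Ctrl-MI and at 8.51 and 8.65 in TTg-MI. The gap of 0.819 between the groups was several times the spread of 0.15 and 0.13 inside them. The means of 7.62 ± 0.10 and 8.58 ± 0.10 (SD, n = 2 each) gave a difference of 0.96 (SE 0.16), or 1.94-fold, and leaving out single arrays gave 0.89 to 1.03.

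Cp, which encodes the copper ferroxidase that works with ferroportin, stood at 13.04 and 12.89 in Ctrl-MI and at 14.15 and 13.49 in TTg-MI. The groups did not overlap, and TTg-MI replicate 1 was the highest. The difference was 0.86 (SE 0.25), or 1.81-fold, and 0.53 without TTg-MI replicate 1.

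Markers of macrophages, cells that recycle iron and are known to hold much ferroportin, were lower in TTg-MI, where Slc40a1 was higher. All 10 measured macrophage markers had a lower TTg-MI mean, the list averaging 10.01 and 8.90 in Ctrl-MI and 8.51 and 8.12 in TTg-MI. Cd163, the haemoglobin scavenger receptor of these cells, was 7.95 on both Ctrl-MI arrays and 7.09 and 7.91 in TTg-MI. Cardiomyocyte markers averaged 18.40 and 18.69 in Ctrl-MI and 18.70 on both TTg-MI arrays, but 4 of these 10 were at the ceiling on all arrays. Which cells carried the Slc40a1 and Cp transcripts was not tested.

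Tfrc, the receptor that brings in transferrin-bound iron, stood at 9.18 and 9.989 in Ctrl-MI and at 11.693 and 9.999 in TTg-MI. The high value came from TTg-MI replicate 1, and TTg-MI replicate 2 lay only 0.009 above Ctrl-MI replicate 2. The difference of 1.26 (SE 0.58) was 0.41 with TTg-MI replicate 1 left out and 2.11 with TTg-MI replicate 2 left out, so its size rested on single arrays.

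Hfe and the other uptake genes overlapped between the groups. Hfe, the haemochromatosis gene whose protein binds the transferrin receptor, stood at 7.68 and 8.00 in Ctrl-MI and 7.83 and 7.59 in TTg-MI, a difference of -0.13 (SE 0.19). Slc11a2, the divalent metal transporter that moves iron out of endosomes, stood at 7.02 and 7.20 in Ctrl-MI and 7.06 and 7.37 in TTg-MI, a difference of 0.11 (SE 0.18). Slc39a14, a carrier of iron not bound to transferrin, stood at 11.36 and 11.61 in Ctrl-MI and 11.28 and 11.58 in TTg-MI, a difference of -0.05 (SE 0.19). For these genes the difference was smaller than the spread between the arrays of a group, and it changed sign as single arrays were left out (-0.29 to 0.03 for Hfe, -0.05 to 0.27 for Slc11a2 and -0.20 to 0.09 for Slc39a14).

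Ferritin stores iron in a shell of heavy and light chains. The heavy chain gene Fth1 read 19.92 on Ctrl-MI replicate 1 and 19.93 on the other 3 arrays, the highest value these arrays gave, so a difference in its transcript could not be seen.

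The light chain gene Ftl1 stood at 15.07 and 14.07 in Ctrl-MI and at 13.26 and 13.16 in TTg-MI. Both TTg-MI values lay 0.816 or more below the Ctrl-MI values, and the TTg-MI hearts were close to each other. The means of 14.57 ± 0.71 and 13.21 ± 0.07 (SD, n = 2 each) gave a difference of -1.37 (SE 0.33), with Ctrl-MI 2.58-fold higher. It was -0.87 with Ctrl-MI replicate 1 left out and -1.86 with Ctrl-MI replicate 2 left out. Ferritin genes have many near-identical pseudogene copies, whose reading by this probe was not analysed here.

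The array order of Ftl1, from Ctrl-MI replicate 1 down to TTg-MI replicate 2, was also that of the macrophage and fibroblast lists. The 9 measured fibroblast markers averaged 13.67 and 12.78 in Ctrl-MI and 12.27 and 11.55 in TTg-MI, and all 9 were highest on Ctrl-MI replicate 1 and lowest on TTg-MI replicate 2. Of the 10 macrophage markers 9 were highest on Ctrl-MI replicate 1. The lysozyme gene Lyz2, for example, was 14.64 and 13.32 in Ctrl-MI and 12.69 and 11.31 in TTg-MI. The part of these cells in the Ftl1 values was not tested.

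**Figure D3:**
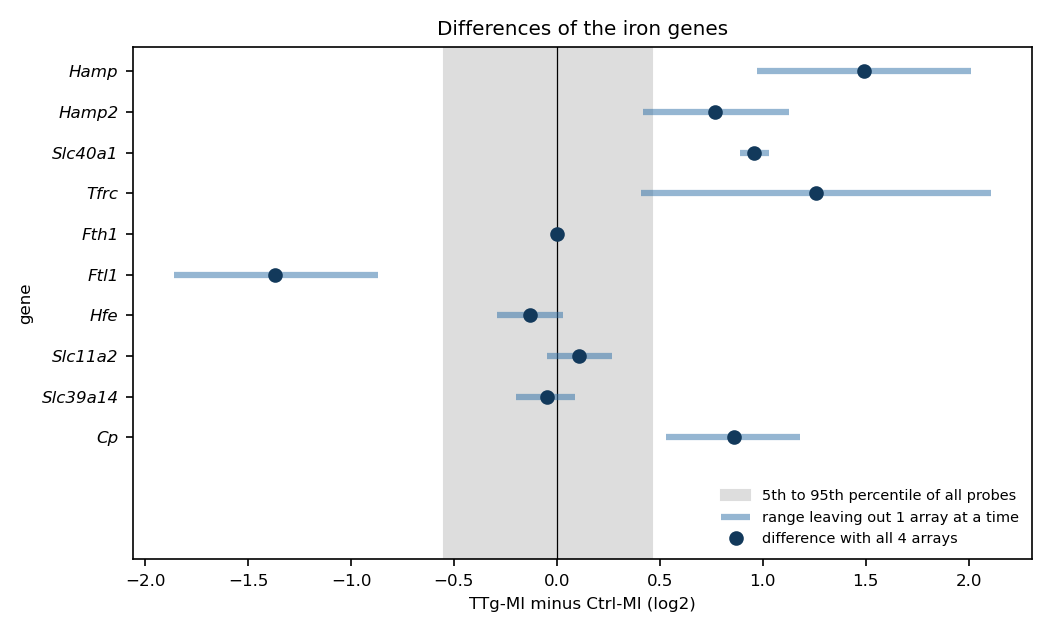
The TTg-MI minus Ctrl-MI difference (log2) of each of the 10 genes with all 4 arrays (points), its range as each array is left out in turn (bars), and the range from the 5th to the 95th percentile of all probes, -0.55 to 0.46 (grey). Slc40a1 has the shortest bar of the genes that lie outside the grey range, and the bars of Tfrc and Hamp2 reach into it.

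Another 101 measured genes of iron and haem, in 6 lists that hold none of the 10 members, were tested within the fit over all probes. In limma with Benjamini-Hochberg adjustment 0 of the 101 passed, the smallest adjusted p being 0.530. At an unadjusted p under 0.05 there were 2 higher (1.98%) and 9 lower (8.91%), where all probes gave 3.18% higher and 5.07% lower. Groups did not overlap for 17 higher (16.8%) and 29 lower (28.7%), against 19.4% and 18.7% of all probes. The median difference of the 101 was -0.03, against 0.011 over all probes. These counts moved as single arrays were left out, and so did the number of calls over all probes. The share of all probes at an unadjusted p under 0.05 was not taken in those fits.

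**Figure D4:**
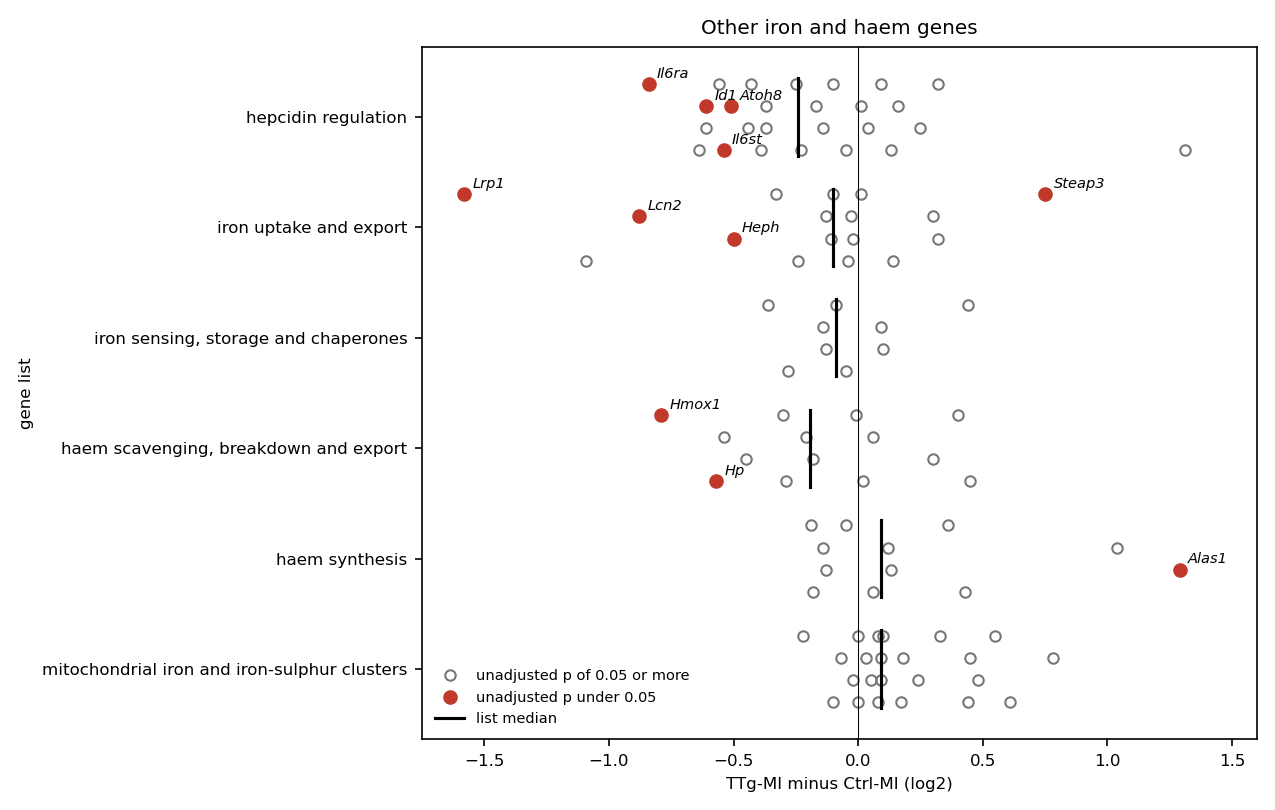
The TTg-MI minus Ctrl-MI difference (log2) of 101 other genes in 6 lists of iron and haem handling, 1 point per gene, with named red points for an unadjusted limma p under 0.05 and a black bar for the list's median; height within a list only separates the points. The red points are Steap3 and Alas1 to the right and 9 genes to the left.

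Of 26 genes that regulate hepcidin, 18 were lower in group mean, and the median was -0.24. None was higher and 4 were lower at an unadjusted limma p under 0.05 (15.4%, against 5.07% of all probes), and 0 passed the adjustment. Without overlap, 13 lay lower (50.0%, against 18.7% of all probes) and 2 higher (7.69%, against 19.4%). Of the 26, 14 were highest on Ctrl-MI replicate 1, the array where macrophage and fibroblast markers were highest, whose part in these values was not tested. The 4 were Il6ra and Il6st, which encode the chains of the interleukin 6 receptor, the BMP target Id1, and Atoh8, a BMP-responsive factor chosen after its value was seen. Il6ra stood at 7.09 and 7.15 in Ctrl-MI and 6.22 and 6.33 in TTg-MI, a difference of -0.84 (SE 0.15, limma with Benjamini-Hochberg adjusted p = 0.530). Il6st stood at 14.42 and 14.46 in Ctrl-MI and 13.89 and 13.90 in TTg-MI, a difference of -0.54 (SE 0.15, adjusted p = 0.546). Il6 itself was below each array's lower quartile.

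Among the hepcidin regulators, Id1, Smad6, Smad7 and Atoh8 are known targets of BMP signals, though not a full list of such targets. None of these 4 passed the adjustment. Id1, an inhibitor of DNA binding, stood at 11.28 and 11.13 in Ctrl-MI and 10.46 and 10.73 in TTg-MI (-0.61, SE 0.17, limma adjusted p = 0.546). Smad6 and Smad7, the inhibitory SMADs that BMP signals induce, differed by -0.64 (SE 0.29, adjusted p = 0.629) and -0.56 (SE 0.23, adjusted p = 0.609), and Atoh8 by -0.51 (SE 0.19, adjusted p = 0.588). For these 4 the groups did not overlap, and 18.7% of all probes also lay lower without overlap. Atoh8 was chosen after its value was seen. Smad6 and Smad7 differed by only -0.25 and -0.26 without Ctrl-MI replicate 1. Bmp10, a BMP ligand of atrial muscle, stood at 5.31 and 5.39 in Ctrl-MI, below those arrays' lower quartiles, and at 12.38 and 11.82 in TTg-MI (limma adjusted p = 0.00489).

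Hjv, which encodes hemojuvelin, the BMP co-receptor for hepcidin induction, stood at 12.23 and 13.94 in Ctrl-MI and at 14.43 and 14.36 in TTg-MI. Ctrl-MI replicate 1 was the low array, and the difference of 1.31 (SE 0.54, limma adjusted p = 0.607) was 0.45 without it and 2.17 without Ctrl-MI replicate 2. Bmp6, the ligand through which iron induces hepcidin in the liver, overlapped between groups (-0.37, SE 0.37). Tfr2, the second transferrin receptor, lay under the lower quartile on all arrays. Tmprss6, the protease that cuts hemojuvelin, and Erfe, the erythroid hormone that suppresses hepcidin, differed by 0.32 (SE 0.17) and 0.13 (SE 0.18). The Tmprss6 groups did not overlap, at 5.34 and 5.48 in Ctrl-MI and 5.86 and 5.61 in TTg-MI, near the lower quartile.

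Among 17 uptake and export genes the median was -0.10. Without overlap, 3 lay higher (17.6%, against 19.4% of all probes) and 6 lower (35.3%, against 18.7%). At an unadjusted limma p under 0.05, 1 was higher (5.88%, against 3.18% of all probes) and 3 lower (17.6%, against 5.07%). Steap3, the endosomal ferrireductase that acts after the transferrin receptor, was the higher one, at 10.45 and 10.64 in Ctrl-MI and 11.46 and 11.12 in TTg-MI (0.75, SE 0.19, limma adjusted p = 0.546). The lower ones were Lrp1, an endocytic receptor that also takes up haem bound to hemopexin (-1.58, SE 0.35, adjusted p = 0.546), Lcn2, a siderophore-binding protein of neutrophils chosen after its value was seen (-0.88, SE 0.32), and Heph, a ferroxidase related to Cp (-0.50, SE 0.18). Heph stood at 6.24 and 5.95 in Ctrl-MI and 5.71 and 5.49 in TTg-MI, the last near that array's lower quartile of 5.47.

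Lrp1 stood at 12.77 and 11.89 in Ctrl-MI and 11.04 and 10.47 in TTg-MI, in the array order of the fibroblast and macrophage lists, and differed by -2.01 without Ctrl-MI replicate 2. Lcn2, highest on Ctrl-MI replicate 2, differed by -0.41 when that array was left out and by -1.35 when Ctrl-MI replicate 1 was. Trf, the transferrin gene, was 11.96 on Ctrl-MI replicate 1 against 10.03 on Ctrl-MI replicate 2 and 9.96 and 9.85 in TTg-MI, so that its difference of -1.09 (SE 0.60) was -0.12 with that first array left out and -2.06 with the second left out. Slc39a8, another carrier of free iron (-0.10, SE 0.37), and Cybrd1, a surface ferrireductase (-0.24, SE 0.27), overlapped between groups.

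The 9 genes of iron sensing, storage and chaperoning gave 0 at an unadjusted p under 0.05 in limma and a median of -0.09. Aco1, the cytosolic aconitase that doubles as iron regulatory protein, stood at 8.83 and 9.27 in Ctrl-MI and 9.42 and 9.56 in TTg-MI (0.44, SE 0.20, limma adjusted p = 0.634) and differed by 0.22 without Ctrl-MI replicate 1. Ireb2, its partner, differed by -0.05 (SE 0.18). Fbxl5, which targets Ireb2 for degradation when iron is present, differed by 0.09 (SE 0.15), and Ncoa4, the receptor that delivers ferritin to autophagy, by 0.10 (SE 0.16). Pcbp3, of the family of iron chaperones, differed by -0.36 (SE 0.18) and by -0.19 without TTg-MI replicate 1.

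Of 14 genes of haem scavenging, breakdown and export, 9 were lower and 5 higher in group mean, and the median was -0.19. At an unadjusted p under 0.05 there were 2 lower (14.3%, against 5.07% of all probes), and 7 lay lower without overlap (50.0%, against 18.7%). Hmox1, the inducible haem oxygenase that frees iron from haem, stood at 8.52 and 7.98 in Ctrl-MI and 7.50 and 7.41 in TTg-MI (-0.79, SE 0.22, limma adjusted p = 0.546) and differed by -0.52 without Ctrl-MI replicate 1. It was highest on the array where macrophage markers were highest. Hp, which encodes the haemoglobin-binding haptoglobin, stood at 6.50 and 6.55 in Ctrl-MI and 5.90 and 6.01 in TTg-MI (-0.57, SE 0.15, adjusted p = 0.546). Cd163 differed by -0.45 (SE 0.28), and by -0.04 without TTg-MI replicate 1. Hpx, the haem carrier hemopexin (0.06, SE 0.16), and Flvcr1, a haem and choline transporter (0.30, SE 0.19), gave no pass either.

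Of 12 measured haem synthesis genes, 1 was higher at an unadjusted p under 0.05, and the median was 0.09. Alas1, the first and rate-limiting enzyme of haem synthesis outside red cells, stood at 14.18 and 15.34 in Ctrl-MI and at 16.31 and 15.78 in TTg-MI. Its TTg-MI values lay above both Ctrl-MI values, a difference of 1.29 (SE 0.41, limma adjusted p = 0.568), or 2.44-fold, which became 0.71 on leaving out the first Ctrl-MI array and 1.87 on leaving out the second. The red cell form Alas2 (-0.18, SE 0.23) and the iron-inserting enzyme Fech (-0.13, SE 0.27) overlapped between groups, while Urod, an intermediate enzyme, differed by 0.36 (SE 0.18) and by 0.18 without TTg-MI replicate 2.

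Red cell markers overlapped between the groups, and the 4 measured averaged 6.96 and 6.76 in Ctrl-MI and 6.75 and 6.88 in TTg-MI. The globin genes were not analysed here.

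Of 23 genes of mitochondrial iron import and iron-sulphur cluster assembly, 18 were higher in group mean, with a median of 0.09 and 0 at an unadjusted p under 0.05 in limma. Without overlap, 5 lay higher (21.7%, against 19.4% of all probes). The lowest array for their mean was Ctrl-MI replicate 1, at 9.84 against 10.22 to 10.24 on the other 3. Cardiomyocyte markers were lowest on the same array for 9 of 10 genes. Of those 10, however, 4 were at the ceiling on all arrays. Atp2a2 (19.92 to 19.93) and Actn2 (18.91 to 18.92) barely differed among the arrays. The part of heart muscle cells in the values of the mitochondrial list was not tested. Cisd1, an iron-sulphur protein of the outer mitochondrial membrane, differed by 0.44 (SE 0.23) and by 0.15 without Ctrl-MI replicate 1. Hspa9, the chaperone of cluster transfer, differed by 0.45 (SE 0.24) and by 0.17 without that array. The mitoferrin genes Slc25a37 (0.03, SE 0.22) and Slc25a28 (0.09, SE 0.15) and the scaffold gene Iscu (0.24, SE 0.22) differed by about their errors or less.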

How the data were processed

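Gene expression was measured in 4 whole hearts on Clariom S Mouse arrays. The deposited table holds 1 value for each of 22206 probes and each array, taken as log2 expression; the log base was inferred from the range of values. Per the submitters' processing notes, the authors used Affymetrix Expression Console 1.4 to make these values. Their normalization, summarization and genome build are not given in the sources used here. Values were used as deposited.

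Of the probes, 19572 had 1 gene symbol in the platform annotation and 2634 had none. Differences are TTg-MI minus Ctrl-MI from limma 3.58.1 in R 4.3.3 (lmFit, eBayes, two-sided) over all probes, with Benjamini-Hochberg adjustment and a threshold of 0.05. The fit was tested on simulated data. Precision is limited by the number of arrays, with 2 residual degrees of freedom and 3.56 from the prior.

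The members and gene lists were chosen with earlier results of these data known. Of 107 other iron and haem genes written, 101 were measured; the rest were not analysed here. The rule for names took all members, a written set from the lists and up to 2 genes per list by smallest p (36 genes from the lists in all), and the 5 genes nearest to Hamp; Atoh8, Lcn2 and Usf2 were added after their values were seen. There were 9 lists of cell type markers, of which the endothelial, mesothelial and neutrophil lists had median differences of -0.03, -0.36 and 0.06. Cd163 and Alas2 stand in both an iron list and a marker list.

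The alternatives tried were leaving out each array, quantile normalization, dropping dim probes, centring arrays on their medians, a robust prior with an intensity trend, a block for replicate number, 1 probe per symbol, and a threshold of 0.1. Same-numbered arrays deviated from their group means with a correlation of 0.163 across probes, and 2 pairs are too few to show a pairing. Promoters came from RefSeq (GRCm38.p6). No promoter was listed for Slc40a1, Slc11a2 and Slc39a14.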

Additional observations from a re-analysis of the deposited data

How the results depend on the processing

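Each result rests on 2 hearts per group, and the signal of Fth1 was at the ceiling. With all 4 arrays, quantile normalization and median centring turned the direction of none of the 10 iron genes and 39 other named genes. The replicate block, the trend prior and the dim filter cannot move a difference in this balanced design, only its test, and the dim filter dropped 9 of the 39 (Tfr2, Tmprss6, Erfe, Il6, Heph, Cybrd1, Hpx, Hp and Slc25a37). Fth1 differed by 0.02 after median centring.

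Probes called numbered 1 with all arrays, 4 with an intensity trend and robust prior, 7 with the replicate block and 1 to 332 with 1 array left out, the highest without Ctrl-MI replicate 2. Of the 101 other iron and haem genes, 0 to 4 were called as arrays were left out. At an unadjusted p under 0.05 the higher ones numbered 2 with all arrays, 4 after quantile normalization, 8 with the replicate block and 2 to 17 as arrays were left out, and the lower ones 4 to 15. The arrays share only a number, so the block is no test of pairing.

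As single arrays were left out, 11 of the 39 named genes changed sign: Bmp6 (-0.86 to 0.13), Tfr2 (-0.00137 to 0.18), Erfe (-0.02 to 0.28), Slc39a8 (-0.67 to 0.48), Cybrd1 (-0.61 to 0.13), Ireb2 (-0.22 to 0.12), Hpx (-0.01 to 0.14), Alas2 (-0.44 to 0.09), Fech (-0.42 to 0.17), Slc25a37 (-0.21 to 0.28) and Iscu (-0.01 to 0.49). The cause was not tested.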
